A study of Homo sapiens with 6 samples.

Results

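The genes described here are 10 genes of lipolysis and of the lipid droplet: G0S2, HILPDA, PNPLA2, LIPE, MGLL, ABHD5, PLIN2, PLIN3, PLIN4 and PLIN5. They were picked by symbol from the 26255 symbols of the authors' expression table, and all 10 have a row there. G0S2 was picked because its RNA was far higher in one group than in the other in this same comparison, and the others because of their known part in the same pathway. The differences between groups given for the 10 are therefore a description, without a test. The samples were 6 RNA-seq libraries of MDA-MB-231, a human breast cancer cell line, in 2 groups of 3. Cells of both groups carried a lentiviral hairpin and had been selected with puromycin: the shNT libraries carried the control hairpin, and those labelled shGPR81 a hairpin against the lactate receptor GPR81, whose gene is HCAR1. The labels do not say which of the study's hairpins was sequenced, nor whether the libraries of a group came from separate cultures, so the spread between them may be technical.

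Lipid droplets store fat as triacylglycerol under a coat of perilipins. Adipose triglyceride lipase, the product of PNPLA2, takes off the first fatty acid, hormone-sensitive lipase (LIPE) the next, and monoacylglycerol lipase (MGLL) the last. ABHD5 activates PNPLA2, while the small proteins G0S2 and HILPDA inhibit it. In fat cells lactate acts on GPR81, a receptor coupled to inhibitory G proteins, which lowers cAMP and with it lipolysis. Protein kinase A, activated by cAMP, phosphorylates LIPE and perilipins.

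G0S2, the one member whose libraries fell into separate groups, occupies bases 209848757 to 209849735 of chromosome 1 (GRCh37, plus strand). Of the 14349 genes compared between groups, 25.6% had groups without overlap, so nothing is read from this separation being found in 1 member. The sequences before the starts of G0S2, of its target PNPLA2 and of the droplet coat gene PLIN2 are shown because the first differed in RNA level and the other two did not stand apart. They are 250 bases each, 5′ to 3′, taken from RefSeq and matched to GRCh37, where each occurs 1 time on its chromosome, at chr1:209848507-209848756 on the plus strand for G0S2, chr11:818664-818913 on the plus strand for PNPLA2 and chr9:19127491-19127740 on the minus strand for PLIN2. Capitals mark matches on either strand to any of 8 motifs named below.
G0S2: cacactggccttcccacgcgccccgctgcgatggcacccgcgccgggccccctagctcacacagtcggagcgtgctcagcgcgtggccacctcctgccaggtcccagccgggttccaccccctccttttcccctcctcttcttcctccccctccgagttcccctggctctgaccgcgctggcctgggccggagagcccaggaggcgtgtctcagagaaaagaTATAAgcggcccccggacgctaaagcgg
PNPLA2: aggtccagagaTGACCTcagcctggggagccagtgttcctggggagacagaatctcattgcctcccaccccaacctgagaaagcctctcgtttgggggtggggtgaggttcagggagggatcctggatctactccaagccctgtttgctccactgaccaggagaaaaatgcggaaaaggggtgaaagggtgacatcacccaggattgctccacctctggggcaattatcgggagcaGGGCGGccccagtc
PLIN2: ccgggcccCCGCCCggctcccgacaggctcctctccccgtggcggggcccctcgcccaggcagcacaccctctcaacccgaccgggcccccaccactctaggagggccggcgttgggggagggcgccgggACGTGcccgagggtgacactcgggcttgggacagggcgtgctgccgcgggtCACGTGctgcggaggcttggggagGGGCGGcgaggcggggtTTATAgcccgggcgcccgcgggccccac

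The motifs searched were the cAMP response element TGACGTCA and its part TGACG, the E-box CACGTG and ACGTG, which overlaps it, the TATA-box letters TATAA, the CCAAT box CCAAT, the GC box GGGCGG and the nuclear receptor element AGGTCA. In G0S2 the TATAA that begins 28 bases before the start was the only match to any of them. TATAA also stood in the windows of PLIN2, PLIN4 and PLIN5, and 18.9% of 35093 windows of the same length hold it. The PLIN2 window held CACGTG 69 bases before the start, which 6.34% of windows hold, and the PNPLA2 window held AGGTCA on the minus strand, which 12.1% hold. TGACGTCA, found in 1.65% of windows, was in none of the windows of the 8 members in the RefSeq table. TGACG, found in 21.2%, was in those of LIPE and PLIN3. ACGTG was found in 18.5% of all windows, CCAAT in 32.0% and GGGCGG in 42.6%. A match is a run of letters and not a binding site. MGLL and HILPDA are named only.

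The values are FPKM, fragments scaled by transcript length and library size, so levels of different genes can be compared with each other. Depth is not given with them, but the FPKM of 8497 genes were whole multiples of 1 step per gene, within 0.01 reads. These steps gave relative depths of 1 to 1.07 and, with annotated transcript lengths, medians of 12369817 to 13244366 reads per library. Reads are given as the lowest set of whole numbers fitting a gene's FPKM, and these could be had for G0S2, PNPLA2, ABHD5, PLIN2 and PLIN4. For some other genes of low FPKM the numbers were far too high for the level, so the 8497 include false fits. Groups were compared with limma on log2(FPKM + 0.1) over the 14349 genes that reached 0.1 FPKM in 3 or more libraries, and a call needed an adjusted p below 0.05 together with more than a 1.5-fold change. HCAR1 was at 0.968, 1.02 and 1.36 FPKM in shNT and at 0.978, 0.891 and 0.396 FPKM in shGPR81, so the groups overlapped. Its log2 fold change was -0.57 (SE 0.31, limma, Benjamini-Hochberg adjusted p = 0.380), and p was 0.2 by the exact permutation test (two-sided), whose smallest possible p here is 0.1. Its summed reads were 129 in shNT and 92 in shGPR81. Corrected for depth, their ratio was 0.677 (95% Clopper-Pearson interval 0.513 to 0.892), an interval that covers counting error only. The paper reports reduced GPR81 in its knockdown cells by RT-qPCR and western blotting. As a check of the cell line, VIM, CD44, AXL, CAV1 and MSN averaged 163 FPKM or more, while SPARC, of the same list of mesenchymal markers, averaged 0.0799 FPKM. Of 9 luminal markers ESR1, PGR and CDH1 were listed at 0, and the others were present. Their means over the 6 libraries were 95.1 FPKM for KRT19, 5.88 for EPCAM, 3.88 for TFF1, 2.06 for ERBB3, 1.65 for FOXA1 and 1.29 for GATA3. By group, TFF1 averaged 7.35 FPKM in shNT and 0.401 FPKM in shGPR81, and ERBB3 1.43 and 2.69 FPKM.

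Of the 10 genes, 8 were tested, 1 of them, G0S2, passed the rule for a call and the other 7 did not. Among all tested genes 2.54% passed it, 0.955% as higher and 1.59% as lower. Because G0S2 was picked from this comparison, nothing is read from that count. PLIN4 and PLIN5 were below the limit of testing.

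The 2 inhibitors of PNPLA2 differed from each other. G0S2 was at 38.6, 50.2 and 48.0 FPKM in shNT and at 204, 203 and 235 FPKM in shGPR81. Every shGPR81 library lay far above every shNT library, and within each group the libraries lay close together. The group means were 45.6 ± 6.16 and 214 ± 18.6 FPKM (SD, n = 3), a log2 fold change of 2.23 (SE 0.11) or 4.70-fold on the log2(FPKM + 0.1) scale. The shNT values rest on 402, 536 and 500 reads, the shGPR81 values on 2274, 2232 and 2595. Corrected for depth, the summed reads gave a ratio of 4.69 with a 95% Clopper-Pearson interval of 4.43 to 4.97, which covers counting error only. Counting error was 4.99% for the library with the fewest reads, against a coefficient of variation between libraries of 13.5% in shNT and 8.69% in shGPR81. The spread between libraries was thus above what counting alone gives.

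The level of G0S2 moved it from place 2145 among all symbols in shNT to place 408 in shGPR81. Its difference of 168 FPKM was the largest of all 137 genes called higher. By fold change it was in place 25 of all 11677 tested genes that averaged 1 FPKM or more, and in place 3 of the 103 of these called higher. These places describe the gene and were part of why it was picked. In bulk RNA a higher level in every cell and a larger share of cells with the RNA cannot be told apart.

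HILPDA, which is induced by hypoxia and also inhibits PNPLA2, was at 7.25, 8.47 and 9.02 FPKM in shNT and at 6.75, 6.89 and 8.47 FPKM in shGPR81. The groups overlapped. The log2 fold change was -0.16 (SE 0.12, 95% interval -0.44 to 0.12). HIF1A, a hypoxia-inducible factor subunit, was at 168 ± 7.98 and 163 ± 6.42 FPKM (SD, n = 3), a log2 fold change of -0.04 (SE 0.05). EPAS1, also such a subunit, had a log2 fold change of -0.40 (SE 0.06). These are RNA levels, and the part of hypoxia signalling in the level of HILPDA was not tested.

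**Figure D1:**
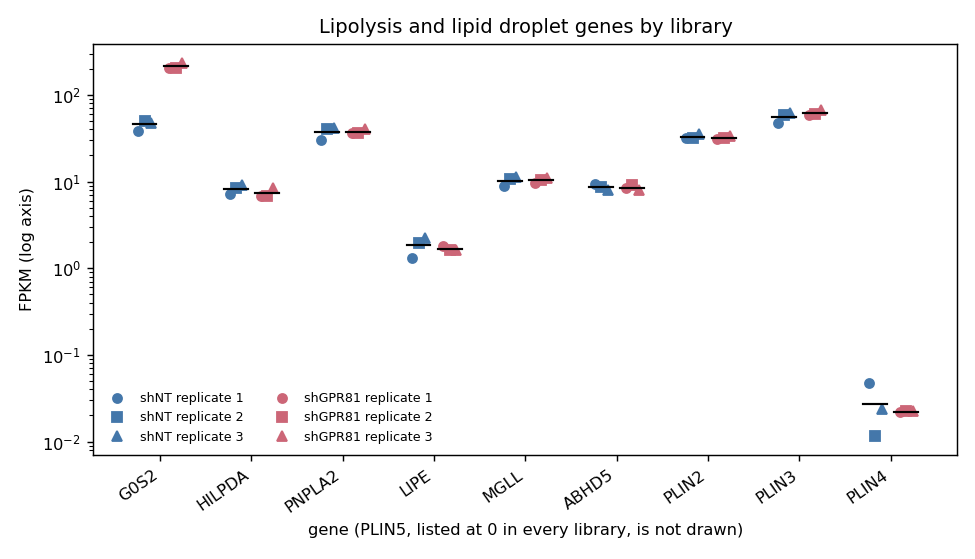
FPKM (log axis) of 9 of the 10 genes in each library, with shNT in blue, shGPR81 in red, the replicate given by the symbol and the group mean as a black line. G0S2 lay between 38.6 and 50.2 FPKM in shNT and between 203 and 235 FPKM in shGPR81, while the groups of the other genes overlap. Among all tested genes 25.6% had groups without overlap. PLIN5, listed at 0 throughout, is not drawn.

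Among the lipases, PNPLA2 was at 29.9, 40.9 and 41.5 FPKM in shNT and at 36.1, 36.0 and 40.0 FPKM in shGPR81. The shGPR81 libraries lay inside the range of shNT. The reads were 915, 1284 and 1271 in shNT and 1182, 1166 and 1296 in shGPR81, a depth-corrected ratio of 0.997 (95% Clopper-Pearson interval 0.952 to 1.05). The log2 fold change was 0.01 (SE 0.13, 95% interval -0.28 to 0.31), and a difference inside this interval could not be seen with this spread between libraries.

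LIPE, hormone-sensitive lipase, was the lowest of the tested members, at 1.33, 1.96 and 2.21 FPKM in shNT and at 1.79, 1.62 and 1.63 FPKM in shGPR81. All shGPR81 values lay inside the shNT range. Its interval was the widest of the tested members, with a log2 fold change of -0.09 (SE 0.19, 95% interval -0.53 to 0.35). Exons of LIPE share 500 bases with the antisense gene LIPE-AS1. Whether reads were assigned by strand is not given in the sources used here. Exons of PNPLA2 and PLIN3 share 401 and 502 bases with other genes on the opposite strand, and those of PLIN4 share 17. HILPDA shares 186 and 175 bases, and PLIN5 1047 bases, with genes on their own strand, which strand could not separate. MGLL was at 8.78, 10.6 and 11.3 FPKM in shNT and at 9.53, 10.5 and 11.1 FPKM in shGPR81, again with overlap and a log2 fold change of 0.02 (SE 0.11, 95% interval -0.23 to 0.28).

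ABHD5, the coactivator of PNPLA2, was at 9.31, 8.77 and 8.02 FPKM in shNT and at 8.35, 9.05 and 8.01 FPKM in shGPR81. The groups overlapped, and the reads, 661, 638 and 570 against 635, 679 and 602, gave a ratio of 0.974 (95% Clopper-Pearson interval 0.913 to 1.04). The log2 fold change was -0.04 (SE 0.08, 95% interval -0.23 to 0.16). Its exons share 170 bases with ANO10 on the other strand.

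The perilipins fell into a pair with high and a pair with almost no RNA. PLIN3, which coats droplets in most cell types and is also found free in the cytosol, was at 46.9, 58.9 and 61.6 FPKM in shNT and at 59.1, 60.0 and 66.9 FPKM in shGPR81. The shGPR81 libraries lay toward the top, but the groups overlapped, with a log2 fold change of 0.16 (SE 0.11, 95% interval -0.09 to 0.41). PLIN2, the main droplet coat protein outside fat cells, was at 31.8, 31.5 and 35.8 FPKM in shNT and at 31.0, 31.4 and 33.3 FPKM in shGPR81. Its log2 fold change was -0.05 (SE 0.07, 95% interval -0.20 to 0.11), the narrowest interval of the tested members. The reads, 792, 803 and 891 against 827, 827 and 877, gave a ratio of 0.967 (95% Clopper-Pearson interval 0.914 to 1.02).

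PLIN4, a perilipin of fat and muscle cells, stood on 4, 1 and 2 reads in shNT and 2 reads in each shGPR81 library. That is too few to show a difference in either direction. PLIN5, the perilipin of oxidative tissues, was listed at 0 in all 6 libraries. PLIN1, the coat protein of fat cells and not one of the 10, stood on 3, 5 and 0 reads in shNT and on 2, 2 and 0 reads in shGPR81.

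The 7 tested genes other than G0S2 lay between -0.16 and 0.16 on the log2 scale, and their 95% intervals reached at most 0.53 in either direction, or 1.45-fold. Differences above 1.5-fold were therefore outside the interval of each of the 7, each interval taken alone.

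**Figure D2:**
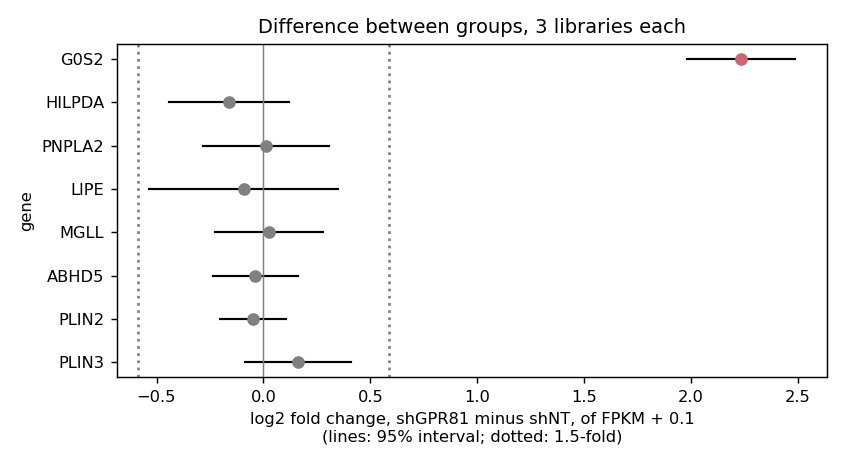
Log2 fold change (shGPR81 minus shNT, of FPKM + 0.1) of the 8 tested genes, with 95% intervals from limma as lines and a 1.5-fold change as dotted lines. G0S2 stands at 2.23 and the other 7 lie between -0.16 and 0.16 with intervals inside the dotted lines.

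In shNT the order of levels was PLIN3, G0S2, PNPLA2, PLIN2, MGLL, ABHD5, HILPDA, LIPE, PLIN4 and PLIN5. The means were 55.8 FPKM for PLIN3, 45.6 FPKM for G0S2, 37.4 FPKM for PNPLA2 and 33.0 FPKM for PLIN2. Neighbours among these first 4 overlapped in range, and so did MGLL with ABHD5 and ABHD5 with HILPDA. PLIN2 and MGLL, HILPDA and LIPE, and LIPE and PLIN4 did not overlap. In shGPR81 the order was the same but for G0S2, which stood first, and only ABHD5 and HILPDA overlapped as neighbours.

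Ratios taken within a library leave out whatever scales a whole library. G0S2 over PNPLA2, inhibitor over target, was 1.29, 1.23 and 1.16 in shNT and 5.66, 5.63 and 5.89 in shGPR81. The ratio was thus about level within each group, and the libraries of the 2 groups lay far apart, as G0S2 alone did. ABHD5 over PNPLA2, activator over target, was 0.312, 0.214 and 0.193 in shNT and 0.232, 0.251 and 0.20 in shGPR81, with overlap. G0S2 over HILPDA, the ratio of the 2 inhibitors, was 5.52 ± 0.350 (SD, n = 3) in shNT and 29.1 ± 1.24 in shGPR81. PLIN3 over PNPLA2 was 1.57, 1.44 and 1.48 in shNT and 1.64, 1.67 and 1.67 in shGPR81, a small difference without overlap. Each of these genes alone overlapped between groups. Groups without overlap were seen in 25.6% of all tested genes. The share among ratios was not worked out, and nothing is read from this difference. All the ratios are of RNA levels per length and not of protein.

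**Figure D3:**
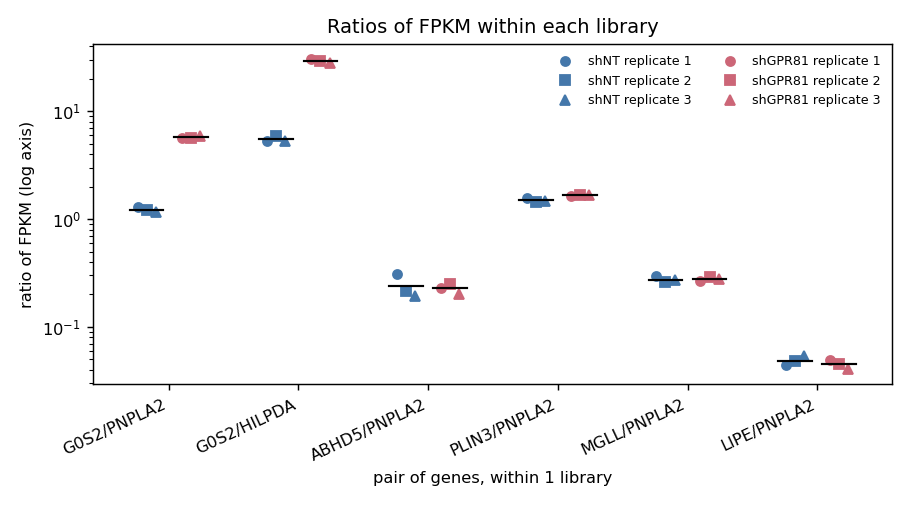
Ratio of the FPKM of 2 genes within each library (log axis), with symbols and colours for replicates and groups and black lines for group means. G0S2 over PNPLA2 was 1.22 in shNT and 5.72 in shGPR81 as means, and ABHD5, MGLL and LIPE over PNPLA2 overlap between groups.

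One shNT library moved several members together. Replicate 1 of shNT was the lowest of its group in 6 of the 8 tested members, G0S2, HILPDA, PNPLA2, LIPE, MGLL and PLIN3. Its log2 deviation from the shNT mean was -0.23 for G0S2, -0.31 for PNPLA2 and -0.41 for LIPE, while ABHD5 deviated by 0.10. Over 11446 genes that averaged 1 FPKM or more and had a known GC content, this library was the lowest of shNT in 43.6%, but in 85.5% of the quintile richest in GC and in 7.16% of the poorest. The transcripts of PNPLA2, LIPE and PLIN3 are in the richest quintile, and that of ABHD5, with 37% GC, in the poorest. Those of G0S2 and MGLL are in quintile 4, counted from the poorest, and that of HILPDA in quintile 3. In this library G0S2 and MGLL deviated by -0.23 and -0.21, where the median of quintile 4 was -0.09. HILPDA deviated by -0.18, where the median of quintile 3 was -0.004. Without this library the log2 fold change of G0S2 was 2.12, that of PNPLA2 -0.14 and that of LIPE -0.30. After a correction for GC content it was 2.23 for G0S2.

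**Figure D4:**
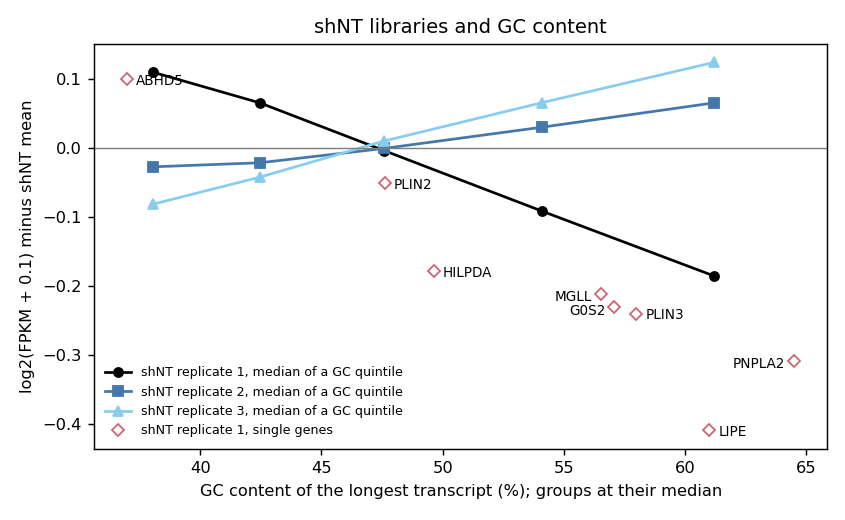
Deviation of the shNT libraries from their mean (log2 of FPKM + 0.1) against the GC content of the longest transcript in percent, as lines through medians of GC quintiles, with shNT replicate 1 also shown for the 8 tested genes as open diamonds. The median of replicate 1 fell from 0.11 in the poorest to -0.19 in the richest quintile, and LIPE lay at -0.41.

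The neighbours of G0S2 were taken as all genes of the table within 250 kb, which gave 10, of which 4 were tested. LAMB3, a laminin chain gene 23.0 kb to the left of G0S2, was at 64.8, 78.1 and 79.9 FPKM in shNT and at 101, 102 and 111 FPKM in shGPR81. Its groups did not overlap, as was so for 25.6% of all tested genes. The log2 fold change was 0.50 (SE 0.09, limma, adjusted p = 0.0183), a 1.41-fold difference, past the threshold on p and below that on fold. The threshold on p was not passed without shNT replicate 2 (limma, adjusted p = 0.0597). Nor was it without shGPR81 replicate 1, 2 or 3 (limma, adjusted p = 0.0732, 0.0756 and 0.0745). Without shNT replicate 1 or 3 it was passed (limma, adjusted p = 0.0064 and 0.0267). With all libraries it was missed by limma without a trend in eBayes (adjusted p = 0.0550). It was also missed by limma's treat test against the fold change itself. The remaining alternatives with all libraries passed it. HSD11B1, the cortisol-forming enzyme 9.8 kb to the right, stood on 4, 1 and 7 reads in shNT and 1, 2 and 1 reads in shGPR81 (limma, adjusted p = 0.410). C1orf74 and DIEXF had log2 fold changes of -0.01 (SE 0.13) and 0.11 (SE 0.07) and were not called. MIR205HG and MIR4260 were listed at 0 in every library.

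The 5 genes whose profile over the 6 libraries lay closest to that of G0S2 were RTN1, GUCY1B3, TRIML2, ENPP4 and PTPRR, out of 11676 compared. Closeness was the Euclidean distance between log2 profiles centred on each gene's mean, and it was 1.0 for RTN1 and 1.21 for PTPRR. All 5 were lower in level than G0S2, with means of 0.150 FPKM (RTN1) to 3.16 FPKM (ENPP4) in shNT and 1.87 FPKM (PTPRR) to 8.45 FPKM (ENPP4) in shGPR81. GUCY1B3, a subunit of the nitric oxide receptor guanylate cyclase, went from 0.680 ± 0.0312 to 1.92 ± 0.146 FPKM (SD, n = 3). RTN1 differed by 3.0 on the log2 scale and the other 4 by 1.34 to 1.40, so none shared the size of the difference in G0S2.

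Around the 10 genes, 132 genes in 7 lists of lipid handling and its control were looked at, and 109 were tested. Of these, 4 were called lower (LPL, PDE3B, CEBPA and ABHD12) and 1 higher (METTL7B), 4.59% against 2.54% of all tested genes. The median log2 fold change was -0.03, beside 0.01 over all tested genes, and 99 of the 109 lay within 1.5-fold. The lists were written with earlier results of these data known.

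LPL, lipoprotein lipase, which frees fatty acids from circulating lipoproteins, was at 0.901, 0.779 and 0.880 FPKM in shNT and at 0, 0 and 0.0194 FPKM in shGPR81. In reads this was 44, 39 and 43 against 0, 0 and 1. The RNA was nearly absent from all 3 shGPR81 libraries. Scaled to equal depth, shNT held 133 times the reads of shGPR81 (95% Clopper-Pearson interval 23.4 to 5281). In the limma fit it fell by 3.17 on the log2 scale (SE 0.23, Benjamini-Hochberg adjusted p = 0.00093). The fitted size depends on the offset of 0.1 FPKM and is no bound. LPL reached 0.1 FPKM only in the shNT libraries, so it entered the test through the group where it was high. Its adjusted p is therefore no independent support, and the reads are the plainer description.

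PDE3B, the phosphodiesterase through which insulin lowers cAMP in fat cells, was at 1.18, 1.02 and 1.37 FPKM in shNT and at 0.104, 0.151 and 0.151 FPKM in shGPR81. Its reads were 96, 85 and 111 in shNT and 9, 13 and 13 in shGPR81. It fell by 2.45 on the log2 scale (SE 0.21, limma, adjusted p = 0.0012), with a ratio of reads of 0.114 (95% Clopper-Pearson interval 0.0778 to 0.162). Its relative PDE3A was at or near 0 in all libraries.

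CEBPA, a transcription factor of fat cell differentiation, was at 1.88, 2.31 and 2.06 FPKM in shNT and at 0.838, 0.990 and 0.961 FPKM in shGPR81. It fell by 1.08 on the log2 scale (SE 0.14, limma, adjusted p = 0.0056). PPARG, the master regulator of fat cells and a driver of G0S2 in them, was at 37.2 ± 1.12 and 36.1 ± 0.444 FPKM (SD, n = 3). Its log2 fold change was -0.04 (SE 0.05, limma, adjusted p = 0.706). This is its RNA level, and the part of PPARG in the level of G0S2 was not tested.

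METTL7B, a membrane methyltransferase found on lipid droplets, was the one list gene called higher. It was at 0.894, 1.36 and 1.12 FPKM in shNT and at 2.61, 2.54 and 2.48 FPKM in shGPR81. The reads were 16, 25 and 20 in shNT against 50, 48 and 47. The log2 fold change was 1.13 (SE 0.16, limma, adjusted p = 0.0088). With shGPR81 replicate 1 left out it stood at 1.11 on the log2 scale with an adjusted p of 0.0546 (limma), and without replicate 2 or 3 of shGPR81 the adjusted p was 0.0495 or 0.0405 (limma).

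ABHD12, a lipase of lysophosphatidylserine, was at 36.6, 41.5 and 44.4 FPKM in shNT and at 26.8, 25.9 and 26.1 FPKM in shGPR81. It fell by 0.63 on the log2 scale (SE 0.08, limma, adjusted p = 0.0043). It lies on chromosome 20, whose 269 genes averaging 5 FPKM or more had a median log2 fold change of -0.40, and none of the 10 members lies there. The tested list genes there were 5: ABHD12, FITM2, LPIN3, CEBPB and GNAS. LPIN3 went the other way, at 0.64 (SE 0.25, limma, adjusted p = 0.224), and CEBPB was at -0.31 (SE 0.11, limma, adjusted p = 0.187). The part of position in these differences was not tested. Without shNT replicate 3 ABHD12 was at -0.57, below the fold threshold.

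**Figure D5:**
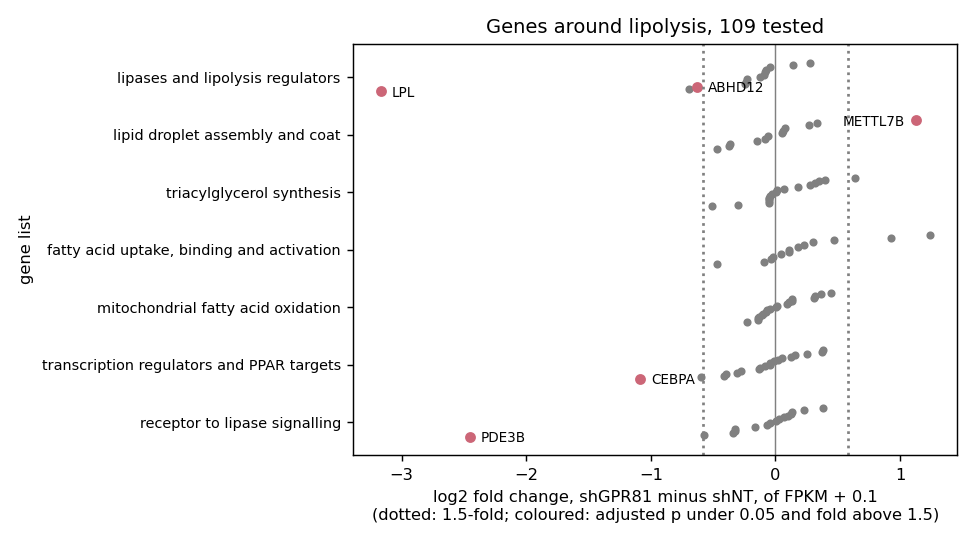
Log2 fold change (shGPR81 minus shNT, of FPKM + 0.1) of the 109 tested genes by list, with called genes in colour and named and a 1.5-fold change as dotted lines. LPL lies at -3.17, PDE3B at -2.45, CEBPA at -1.08, ABHD12 at -0.63 and METTL7B at 1.13, and most other genes lie between the dotted lines.

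By list, the lipases and lipolysis regulators outside the 10 had 13 of 20 genes tested, 2 called lower and 0 higher, with a median of -0.13. LIPA, the acid lipase of the lysosome, was lower by a smaller amount, from 47.0 ± 0.953 to 40.0 ± 1.37 FPKM (SD, n = 3), past the threshold on p (limma, adjusted p = 0.0395) and not on fold. ABHD4 had a log2 fold change of 0.28 (SE 0.13, limma, adjusted p = 0.283). Of the 13 genes of droplet assembly and coat, 12 were tested, 0 called lower and 1 higher, with a median of -0.01. FITM2, which helps droplets bud from the endoplasmic reticulum and lies on chromosome 20, had a log2 fold change of -0.47 (SE 0.12, limma, adjusted p = 0.0807).

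Of 22 genes of triacylglycerol and cholesteryl ester synthesis, 17 were tested and 0 called in either direction, with a median of 0.01. DGAT2, which joins the last fatty acid to diacylglycerol, was at 3.69 ± 0.646 and 2.55 ± 0.244 FPKM (SD, n = 3), a log2 fold change of -0.51 (SE 0.15, limma, adjusted p = 0.111). AGPAT2, which makes phosphatidic acid, had a log2 fold change of 0.39 (SE 0.16, limma, adjusted p = 0.221). Among 18 genes of fatty acid uptake, binding and activation, 13 were tested and 0 called, with a median of 0.11. SLC27A1, a fatty acid transporter, was at 6.67 ± 0.954 and 9.20 ± 0.287 FPKM (SD, n = 3), and limma gave an adjusted p of 0.0586. VLDLR, a receptor for lipoproteins, had a log2 fold change of -0.47 (SE 0.14, limma, adjusted p = 0.112).

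All 19 genes of mitochondrial fatty acid oxidation were tested and 0 were called, with a median of 0.00. ACADVL, the dehydrogenase for very long chains, was higher by a small amount, from 104 ± 5.75 to 130 ± 5.61 FPKM (SD, n = 3; limma, adjusted p = 0.0243), and DECR1, needed for unsaturated chains, from 23.7 ± 0.594 to 29.5 ± 2.35 FPKM (limma, adjusted p = 0.0495), both below the fold threshold. CPT1B had a log2 fold change of 0.45 (SE 0.27, limma, adjusted p = 0.430).

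Of 20 transcription regulators and PPAR targets, 19 were tested, 1 called lower and 0 higher, with a median of -0.04. ANGPTL4, a PPAR target and an inhibitor of LPL, was at 2.0 ± 0.292 and 1.3 ± 0.296 FPKM (SD, n = 3), a log2 fold change of -0.60 (SE 0.19, limma, adjusted p = 0.126). EPAS1, another hypoxia-inducible factor subunit, was lower below the fold threshold, from 24.3 ± 0.912 to 18.4 ± 0.631 FPKM (SD, n = 3; limma, adjusted p = 0.0091). Of 20 genes between receptor and lipase, 16 were tested, 1 called lower and 0 higher, with a median of -0.02. GNAS, the stimulatory G protein subunit on chromosome 20, had a log2 fold change of -0.34 (SE 0.08, limma, adjusted p = 0.0631).

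Most defining markers of fat cells were at or near 0. The exceptions were PPARG, CFD and, in shNT, LPL. CFD averaged 1.99 FPKM in shNT and 1.36 FPKM in shGPR81, and LPL averaged 0.853 FPKM in shNT. Of 12 fat cell markers, ADIPOQ, LEP, PCK1, CIDEA and UCP1 were listed at 0 in every library and 4 were tested, of which LPL was called lower. Their summed level was 39.0 to 40.8 FPKM in shNT and 37.6 to 38.0 FPKM in shGPR81, nearly all of it PPARG. Of 9 luminal markers, 6 were tested, with TFF1 called lower and ERBB3 higher, and the sum was 82.9 to 109 FPKM in shNT and 116 to 134 FPKM in shGPR81, most of it KRT19. Of 7 fibroblast and leukocyte markers, DCN and LUM were listed at 0 and 0 of 3 tested genes were called, with sums of 80.1 to 104 FPKM in shNT and 112 to 131 FPKM in shGPR81, most of it CD68. The part of these markers in the level of G0S2 was not tested.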

How the data were processed

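MDA-MB-231 RNA was sequenced for 3 shNT and 3 shGPR81 samples as stranded mRNA libraries, single-end with 75 bases. According to the study's methods the reads were mapped to hg19 with TopHat (TopHat2 2.0.13), Bowtie2 2.2.3 and SAMtools 0.1.19, and the submitters' processing notes add Cuffnorm 2.2.1. The design text names the mouse genome, but the table holds human symbols. The authors deposited FPKM, 1 value per gene symbol and library. The annotation, the scaling of libraries and the use of strand are not given in the sources used here.

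Tests were run on log2(FPKM + 0.1) by limma 3.58.1 (lmFit, eBayes with trend) under R 4.3.3, on every gene that reached 0.1 FPKM in 3 or more of the 6 libraries, with Benjamini-Hochberg adjustment. The thresholds were those of the study. Members and lists were chosen with earlier results of these data known. Named genes were the 10 members, HCAR1, called list genes, the 2 largest differences per list among genes averaging 1 FPKM or more, the 5 profiles nearest to G0S2 and genes within 250 kb of it. Some genes that fall under this rule are not reported here. TFF1, ERBB3, LIPA, DECR1, EPAS1, PPARG, HIF1A and others beyond this rule were chosen after their values were seen. Positions and GC content are from GENCODE release 44 on GRCh37, which matched 13831 of the 14349 tested genes, and 3 list genes were found under older symbols. Read numbers were derived from steps in the FPKM, and both this and the limma fit were tested on simulated data. Each simulated gene had a single step, so the test does not cover all failures in real genes. CD36, for example, got 12611 reads at 0.0931 FPKM in shGPR81 replicate 1, a false fit. The alternatives tried were other filters, offsets, scalings, tests, each library left out, a replicate block and a GC correction.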

Additional observations from a re-analysis of the deposited data

How the results depend on the processing

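G0S2 passed the call rule and kept its direction under all 16 alternatives, with log2 fold changes of 2.12 to 2.31, and 0 of the other 7 tested members passed under any. With each library left out in turn, 121 to 256 genes were called lower and 65 to 152 higher, against 228 and 137 with all libraries. Leaving out shNT replicate 2 gave 121 lower and 81 higher. For shGPR81 replicate 1 the counts were 133 and 65, for its replicate 2 they were 135 and 66, and dropping its replicate 3 left 85 higher. An offset of 1 FPKM gave 142 lower and 75 higher. The treat test of limma, which tests against the fold change itself, gave 46 and 9, and of the list genes 2 lower (LPL and PDE3B) and 0 higher, where the main rule gave 4 and 1. Between 3 and 5 list genes were lower and 0 to 1 higher with a library left out, where METTL7B without shGPR81 replicate 1 had an adjusted p of 0.0546 (limma) at a log2 fold change of 1.11, against 1.13 with all libraries. LPL was not tested at a filter of 1 FPKM. The direction of PNPLA2, LIPE, MGLL, ABHD5 and PLIN2, whose differences lay near 0, turned when single libraries were left out. HCAR1 was not called under any of the 15 alternatives that tested it, at -0.78 (without shGPR81 replicate 1) to -0.22 (without shGPR81 replicate 3). Deviations of same-numbered libraries from their group means correlated at 0.12, 0.02 and 0.01 across genes. The value for replicate 1 was the highest of all pairs of libraries, while shNT replicate 3 correlated more with shGPR81 replicate 2 (0.08). Deviations from a mean of 3 libraries depend on each other, so these values do not decide whether replicates were paired. With the replicate block 197 genes were lower and 115 higher, and G0S2 was at 2.23. The GC correction, chosen after the data were seen, gave 279 and 181. The depth limits PLIN4, PLIN5 and other genes of few reads.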
